A study of Mus musculus with 18 samples.

Results

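Transcripts of 8 complement genes were followed in mouse hearts during acute myocardial infarction (AMI): C1qa, C1qb, C1qc, C3, C4b, Cfb, C3ar1 and C5ar1. They were chosen by symbol, as components of the cascade and receptors of its released peptides, from the 24419 gene symbols measured. All 8 exceeded 1 FPKM (mapped fragments scaled by transcript length and by the mapped fragments of the library) in at least 1 mouse, the filter applied to the whole table. The samples were infarcted left ventricle, or control tissue, from 18 male C57BL/6 mice aged 8 weeks. Every mouse, controls included, was anaesthetised with sodium pentobarbital at 50 mg/kg. The artery tied was the left anterior descending coronary artery, near its origin. Tissue was taken 10 min, 1 h, 6 h, 24 h or 72 h later, from 3 mice per time, and 3 control mice (called sham in the study's text) completed the 6 groups. Each mouse is a separate sample in the labels, and no transgene or drug distinguished the groups.

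Complement is a protein cascade that tags damaged or foreign surfaces and recruits leukocytes. C1q, assembled from an A, a B and a C chain, starts the classical pathway, in which C4 is cleaved, and every pathway converges on C3, while factor B supplies the protease of the alternative pathway. Cleavage of C3 and C5 releases the anaphylatoxins C3a and C5a, which act on the receptors encoded by C3ar1 and C5ar1, both carried mainly by myeloid cells. Most circulating complement is made in the liver, whereas C1q is made chiefly by macrophages.

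The 8 genes lie on 4 chromosomes of mm10, all on the minus strand. The C1q chain genes form a tight cluster on chromosome 4 with 3616 bases between C1qb (136880129 to 136886187) and C1qc (136889804 to 136893065), and 2851 bases between C1qc and C1qa (136895917 to 136898803). Chromosome 17 carries C3 (57203970 to 57228136), C4b (34728380 to 34743882) and Cfb (34856374 to 34862518). C3ar1 lies on chromosome 6 (122847138 to 122856161) and C5ar1 on chromosome 7 (16246743 to 16259540). Only 85 bases separate Cfb from C2, and the annotated gene Gm20547 runs through both. Gm20547 is not among the symbols measured, and how reads there were assigned was not tested. C4a, a close copy of C4b, lies 65209 bases from it.

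Because all 8 transcripts were higher 72 h after ligation, the DNA before the start sites of 4 of them is shown. RefSeq start sites (GRCm38.p6) were matched for 5 genes, C1qb, C1qc, C3, C3ar1 and C5ar1. The 250 bases before each start were searched on both strands for the letters of 3 motifs, AGGAAGT (PU.1, a myeloid factor), TGANTCA (AP-1) and TTGCNNAA (C/EBP), which were picked after the sequences had been seen. No match overlapped another. Each sequence is written 5′ to 3′ along the minus strand, without the bases that the annotation places inside the gene. Capitals mark PU.1 letters in C1qb and C1qc, AP-1 letters in C3ar1 and C/EBP letters in C3.
C1qb (chr4:136886201-136886450): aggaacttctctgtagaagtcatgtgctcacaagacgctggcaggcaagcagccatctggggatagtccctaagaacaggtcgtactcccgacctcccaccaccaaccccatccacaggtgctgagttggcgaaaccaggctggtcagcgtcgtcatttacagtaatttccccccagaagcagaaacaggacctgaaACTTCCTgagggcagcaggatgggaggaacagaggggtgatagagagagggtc
C1qc (chr4:136893066-136893164): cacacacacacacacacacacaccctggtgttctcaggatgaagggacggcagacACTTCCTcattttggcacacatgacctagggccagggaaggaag
C3ar1 (chr6:122856162-122856407): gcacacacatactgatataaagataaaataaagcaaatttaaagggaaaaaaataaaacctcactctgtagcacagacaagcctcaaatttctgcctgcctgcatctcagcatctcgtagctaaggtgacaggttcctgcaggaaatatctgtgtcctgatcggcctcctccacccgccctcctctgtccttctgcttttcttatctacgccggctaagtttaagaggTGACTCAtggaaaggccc
C3 (chr17:57228137-57228386): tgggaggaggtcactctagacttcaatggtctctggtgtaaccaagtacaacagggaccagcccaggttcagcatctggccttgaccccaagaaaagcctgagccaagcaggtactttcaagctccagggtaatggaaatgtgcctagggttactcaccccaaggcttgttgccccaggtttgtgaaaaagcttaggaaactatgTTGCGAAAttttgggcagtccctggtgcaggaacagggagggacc

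The PU.1 letters stood 53 to 47 bases before the RefSeq start of C1qb, and 195 to 189 bases before that of C1qc, whose annotated gene begins 151 bases further upstream than the RefSeq start. They also occurred 190 to 184 and 72 to 66 bases before the RefSeq start of C5ar1, both inside the annotated gene, which begins 202 bases further upstream, and the letters were found in 7.69% of the 32851 RefSeq windows of the same length. Before C3ar1 the AP-1 letters stood 22 to 16 bases from the start (6.75% of windows), and before C3 the C/EBP letters TTGCGAAA stood 45 to 38 bases from it (9.56% of windows). These matches are letters in a window, and no binding was measured.

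The depth of the libraries, read from the smallest FPKM steps, ranged from 0.812 to 1.32 times that of the first control mouse and was highest at 72 h (1.24 to 1.32). FPKM summed to 542418 to 600467 per mouse. The third 24 h mouse stood apart from its group on the first 2 principal components, and values without it are given where they change a result. Of the genes called (adjusted p under 0.05 by limma), 68.7% were higher at 72 h, against 52.5% after median-of-ratios scaling and 43.4% after quantile normalization. The same 3 shares were 69.8%, 52.2% and 45.2% at 24 h and 40.9%, 56.6% and 44.3% at 6 h. Median-of-ratios scaling moved the median log2 change of all genes from 0.29 to 0.04 at 72 h and from 0.13 to 0.02 at 24 h, and quantile normalization moved it to -0.10 and -0.04, so changes of single genes are to be read against these shifts.

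All 8 transcripts were higher than control at 72 h, by 2.73-fold for C3 to 32.1-fold for C3ar1 in mean FPKM, and in none of them did the 2 groups overlap. In the same comparison 53.1% of the 13329 genes tested were called higher and 24.2% lower. The median log2 change of the 8, on the log2(FPKM + 1) scale used for every test here, was 3.13 against 0.29 over all genes tested. At 24 h, 4 of 8 were called higher (C1qb, C4b, Cfb and C3ar1) and 0 lower, where 26.2% of all genes were called higher and 11.4% lower. At 6 h, 4 were called higher (C4b, Cfb, C3ar1 and C5ar1), beside 11.6% of all genes, and C1qc was called lower, beside 16.8% of all genes. At 10 min and 1 h limma called 0 of 8 in either direction. Of all genes, 0.248% were called higher and 0.0978% lower at 10 min, and 0.669% and 0.0526% at 1 h. At an unadjusted p under 0.05 the members numbered 2 at 10 min (C3 higher, C5ar1 lower) and 0 at 1 h. The 5 comparisons share the 3 control mice. The 72 h calls held for all 8 in each of 15 alternatives, whereas without any 1 of the control mice only C4b was called at 6 h. Without the first or the second control mouse C3ar1 alone was called at 24 h, and without the third 24 h mouse 7 of 8 were, all but C3. Without the first control mouse the share of all genes called higher was itself 5.73% at 6 h and 9.47% at 24 h.

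Between successive times the steps differed by gene. From 1 h to 6 h 3 of 8 were called higher (C4b, Cfb and C5ar1) and 0 lower, where 9.32% of all genes were higher and 11.2% lower. From 6 h to 24 h C1qc and C3ar1 were called higher and 0 lower, where the shares of all genes were 12.5% and 1.94%. From 24 h to 72 h all 8 were called higher, where 29.7% of all genes were higher and 13.5% lower. Of the genes called, the share that was higher depended on the scaling in these steps too: 45.4% from 1 h to 6 h (58.9% with median-of-ratios scaling), 86.6% from 6 h to 24 h (52.3%) and 68.8% from 24 h to 72 h (53.4%). The 72 h step held for all 8 under both scalings. The C1qc call from 6 h to 24 h was lost with median-of-ratios scaling (limma adjusted p = 0.145).

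**Figure D1:**
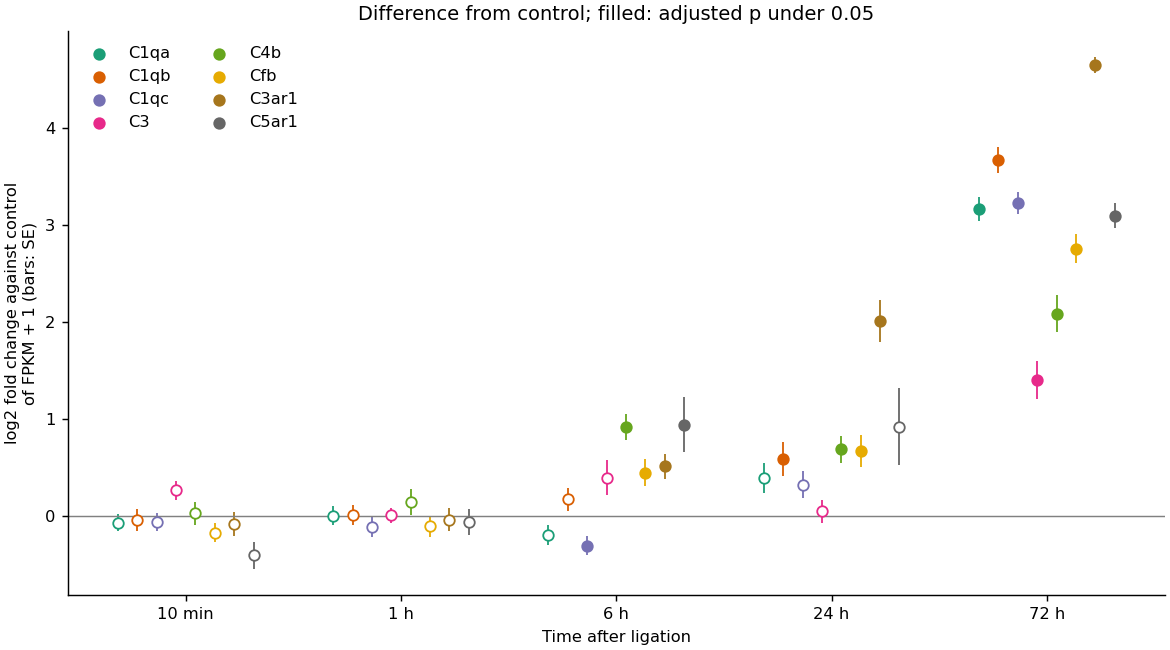
Log2 fold change of FPKM + 1 against control (y axis) at each time after ligation (x axis) for the 8 genes, with bars for the SE; filled points have an adjusted p under 0.05 (limma, 3 mice against 3). All points at 72 h are filled and lie between 1.40 (C3) and 4.65 (C3ar1).

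Among the C1q chains, C1qa measured 75.5, 86.6 and 91.3 FPKM in the control mice. It stayed between 74.2 and 95.8 FPKM at 10 min and 1 h, and read 67.1, 73.0 and 80.3 FPKM at 6 h. At 24 h the mice had 109, 136 and 91.5 FPKM, all above the highest control, the third only just, and the adjusted p was 0.0818 (log2 change 0.39 ± 0.15 SE). The 72 h mice, at 808, 642 and 857 FPKM, were far above every other mouse. The mean was 9.10-fold that of control (log2 change 3.16 ± 0.12 SE, limma adjusted p = 9.38e-08).

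C1qb, the B chain, began lower, with 45.1, 53.4 and 58.7 FPKM in control mice. At 6 h it read 57.8, 53.6 and 65.3 FPKM, overlapping the controls (adjusted p = 0.301). At 24 h all 3 mice, with 75.1, 100 and 65.0 FPKM, exceeded the controls, a 1.53-fold difference in means (log2 change 0.59 ± 0.17 SE, limma adjusted p = 0.0356). That call was lost without any 1 of the control mice (adjusted p 0.0651 to 0.123) and with median-of-ratios scaling (adjusted p = 0.0819). At 72 h the mice had 720, 557 and 757 FPKM, 12.9-fold the control mean (log2 change 3.66 ± 0.13 SE, adjusted p = 7.62e-08).

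C1qc, the C chain, was the only one of the 8 called lower at any time, by this test. Its FPKM were 55.7, 61.7 and 66.0 in control mice and 50.2, 45.1 and 52.7 at 6 h, so that the groups did not overlap. The difference was small, a log2 change of -0.30 ± 0.094 SE (limma adjusted p = 0.0474), and it was called in only 4 of 15 alternatives. At 24 h C1qc read 75.1, 91.9 and 65.0 FPKM, overlapping the controls (adjusted p = 0.101), but above every 6 h mouse. At 72 h it reached 643, 490 and 615 FPKM, 9.53-fold the control mean (log2 change 3.22 ± 0.11 SE, adjusted p = 6.10e-08).

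**Figure D2:**
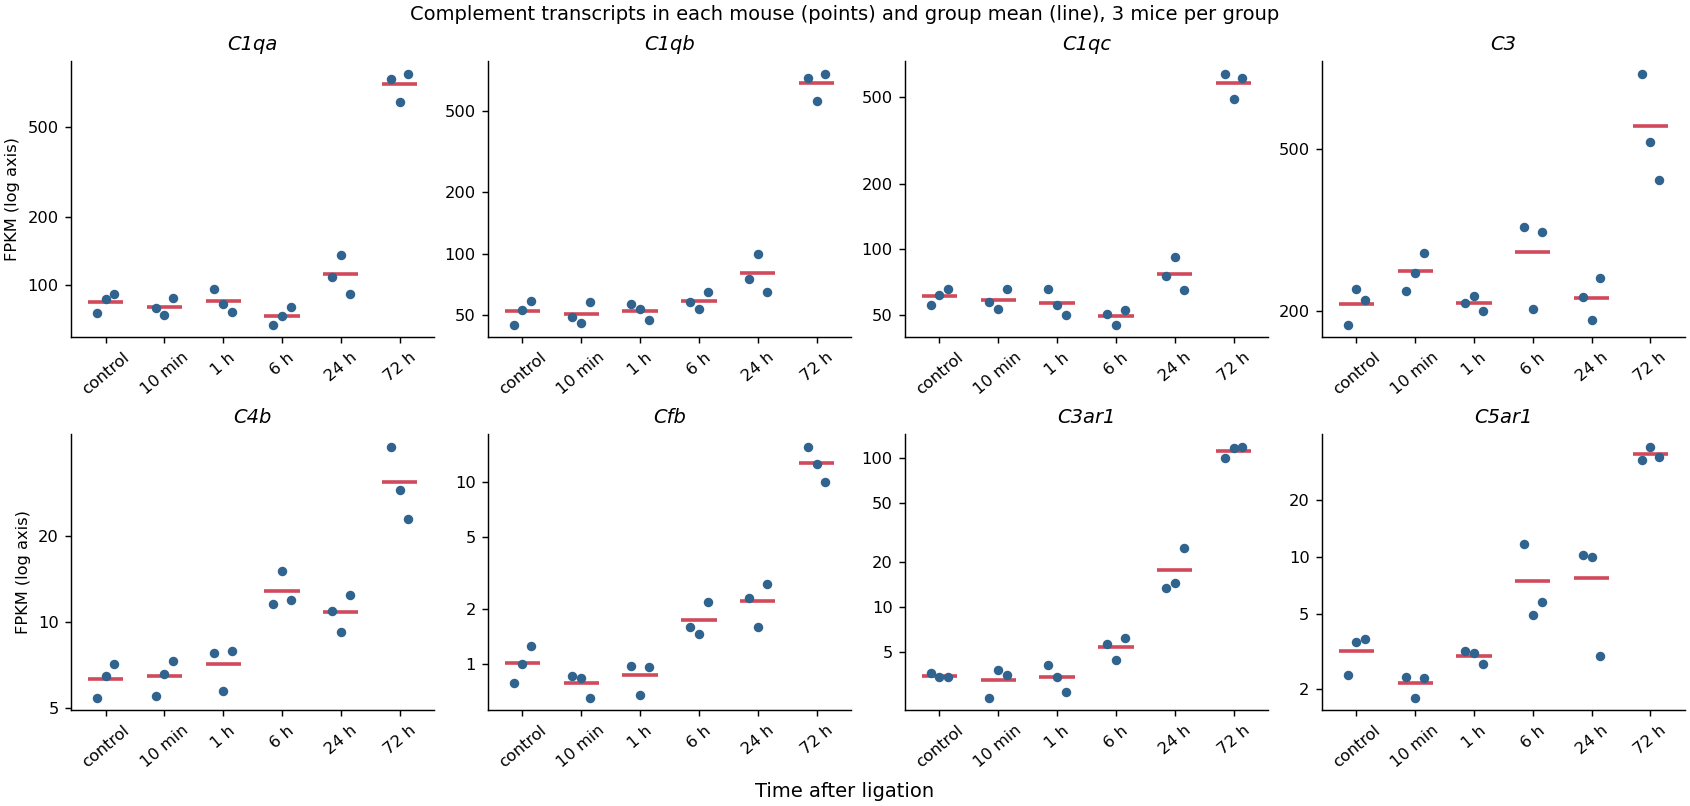
FPKM (log axis, own range in each panel) of each gene in each mouse, by time after ligation; points are mice and lines are means of 3 mice. The 72 h mice lie above all others in each panel, while C5ar1 in the third 24 h mouse (2.98 FPKM) lies within the control range.

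The balance between the chains also differed. Within each mouse the C1qb/C1qa ratio of FPKM was 0.597, 0.616 and 0.643 in control mice and between 0.596 and 0.659 at 10 min and 1 h. It read 0.862, 0.735 and 0.813 at 6 h, then 0.689, 0.736 and 0.711 at 24 h, and 0.891, 0.868 and 0.884 at 72 h. Every mouse from 6 h on lay above every control. The C1qb/C1qc ratio behaved alike, from 0.854 ± 0.0406 (SD, n = 3) in control to 1.19 ± 0.0428 at 6 h, 1.03 ± 0.0513 at 24 h and 1.16 ± 0.0598 at 72 h. C1qc/C1qa moved less. It was 0.725 ± 0.0127 in control, lower without overlap at 1 h (0.670 ± 0.0176) and 24 h (0.692 ± 0.0176, exact two-sided permutation p = 0.1 at both), and 0.759 ± 0.0389 at 72 h, which overlapped control (exact permutation p = 0.3). For C1qb/C1qa and C1qb/C1qc at 6, 24 and 72 h the exact two-sided permutation p was 0.1, the smallest that 3 mice against 3 allow, and 0.2 after adjustment over the 30 ratio tests made. C1qb thus stood higher relative to both other chains in 9 of 9 mice from 6 h on, a difference for which this test cannot give a p under 0.05 with 3 mice against 3.

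**Figure D3:**
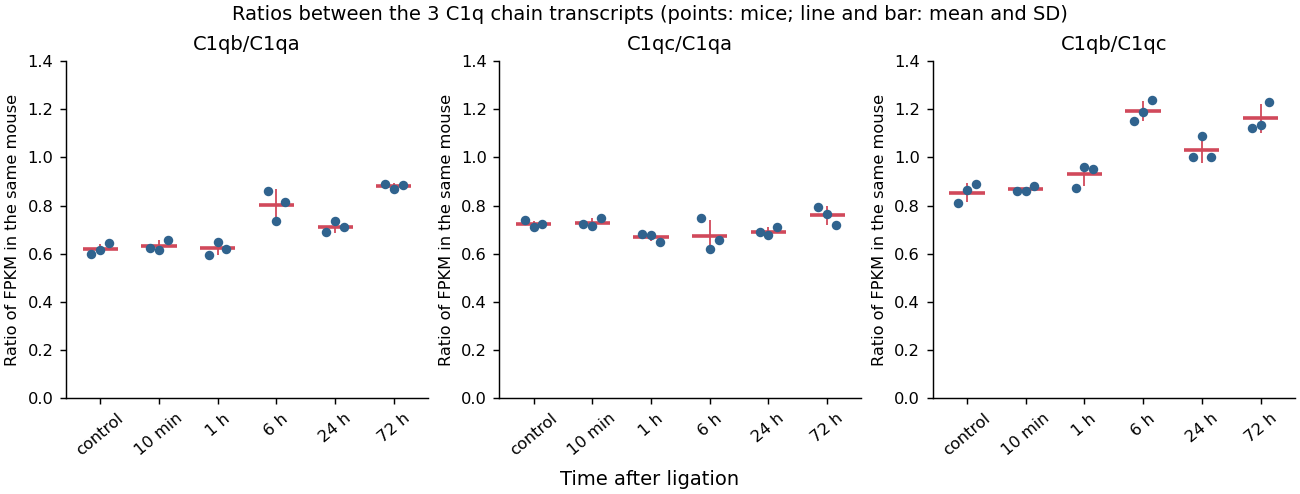
Ratio of FPKM between C1q chain genes in the same mouse (y axis) by time after ligation (x axis); points are mice, lines are means and bars the SD of 3 mice. Both ratios with C1qb on top lie above control from 6 h, whereas C1qc/C1qa lies below control at 1 h and 24 h and overlaps it at 72 h.

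C3, the protein on which the pathways converge, was the most abundant of the 8 in control tissue. It measured 186, 227 and 214 FPKM in control mice. At 10 min it read 225, 248 and 279 FPKM (adjusted p = 0.280) and at 1 h 210, 218 and 200. At 24 h, with 216, 191 and 241 FPKM, it overlapped the controls (adjusted p = 0.768). At 6 h 2 mice were high (322 and 313 FPKM) and 1 was not (202 FPKM, the second mouse), and the adjusted p was 0.139. Without that mouse it was 0.00856 (log2 change 0.61). At 72 h C3 read 766, 521 and 420 FPKM, 2.73-fold the control mean and the smallest relative difference of the 8 (log2 change 1.40 ± 0.20 SE, limma adjusted p = 0.000191).

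C4b encodes complement C4, cleaved in the classical and lectin pathways. Its levels were 5.44, 6.45 and 7.13 FPKM in control mice, 5.51 to 7.34 at 10 min and 5.74 to 7.93 at 1 h. By 6 h they were 11.6, 15.0 and 12.0 FPKM, above every earlier mouse. This was a 2.03-fold difference in means (log2 change 0.91 ± 0.13 SE, limma adjusted p = 0.00396), the one 6 h call among the 8 that held in 15 of 15 alternatives. C4b did not go on climbing to 24 h, where the mice had 11.0, 9.21 and 12.4 FPKM (against 6 h, adjusted p = 0.326). At 72 h they had 40.9, 28.9 and 22.8 FPKM, 4.87-fold control (log2 change 2.09 ± 0.19 SE, adjusted p = 1.22e-05). Its copy C4a stayed between 0.0112 and 0.142 FPKM in the 18 mice. How reads were assigned between C4a and C4b was not tested.

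Cfb, the gene of factor B, was the least abundant of the 8. Control mice had 0.789, 0.999 and 1.25 FPKM, and the 10 min and 1 h mice 0.653 to 0.970. It read 1.60, 1.45 and 2.20 FPKM at 6 h (log2 change 0.45 ± 0.14 SE, limma adjusted p = 0.0456) and 2.32, 1.59 and 2.74 FPKM at 24 h (0.67 ± 0.16 SE, adjusted p = 0.0209). At both times every mouse was above every control, though the 6 h call held in only 8 of 15 alternatives. The 72 h mice had 15.6, 12.5 and 10.0 FPKM, 12.6-fold control in mean FPKM (log2 change 2.75 ± 0.15 SE, adjusted p = 6.90e-07). At such low levels the added 1 FPKM shrinks the log2 change, which was 3.52 with 0.1 FPKM added instead.

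The 3 component genes shared an order among the 72 h mice: the first mouse was highest and the third lowest for C3, C4b and Cfb alike. For the C1q A and B chains the third was highest, and for the C chain the first was highest and the second lowest. The C3/C4b ratio at 72 h was nearly the same in the 3 mice, 18.7, 18.0 and 18.4, and lower than in control mice, 34.1, 35.1 and 29.9. The groups did not overlap at 24 h either (19.7, 20.7 and 19.4), nor at 6 h (22.5 ± 7.89, SD), and at 10 min the ratio was on the other side of control (38.8 ± 1.80 against 33.1 ± 2.75), again without overlap. The exact two-sided permutation p was 0.1 at each of these 4 times, the smallest possible (0.2 after adjustment over the 30 tests).

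C3ar1, the receptor of C3a, showed the largest relative difference of the 8 at 72 h. In control mice it measured 3.62, 3.37 and 3.39 FPKM. It read 5.60, 4.38 and 6.21 FPKM at 6 h (log2 change 0.51 ± 0.13 SE, limma adjusted p = 0.0237), 13.4, 14.5 and 24.9 FPKM at 24 h (2.01 ± 0.22 SE, adjusted p = 0.00265) and 98.8, 116 and 118 FPKM at 72 h (4.65 ± 0.083 SE, adjusted p = 8.73e-09). From 6 h on, every mouse was above every mouse of the time before. The 24 h call held in 15 of 15 alternatives and the 6 h call in 10.

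C5ar1, the receptor of C5a, took another course. Its levels were 2.39, 3.56 and 3.67 FPKM in control mice and 2.33, 1.81 and 2.31 at 10 min, where no mouse overlapped the controls but the adjusted p was 0.260. At 6 h it read 11.7, 4.96 and 5.75 FPKM, all above control (log2 change 0.94 ± 0.28 SE, limma adjusted p = 0.0448). That call held in only 8 of 15 alternatives. At 24 h 2 mice had 10.2 and 9.93 FPKM while the third mouse had 2.98, within the control range, and the adjusted p was 0.105. Without that mouse the log2 change was 1.41 and the adjusted p 0.00132. At 72 h the mice had 32.4, 38.0 and 33.5 FPKM, 10.8-fold control (3.09 ± 0.13 SE, adjusted p = 1.47e-07).

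The same mouse was highest of its group in 4 other receptor or neutrophil transcripts, a comparison made after its C5ar1 value was seen. It was lowest of its group in C1qa (91.5 FPKM), C1qb (65.0), C1qc (65.0) and the receptor gene Vsig4 (0.562). In C3, C4b and Cfb it was highest. Its C3ar1 was 24.9 FPKM. C5ar2, the second C5a receptor, read 1.59, 0.952 and 4.11 FPKM in the 3 mice. Cxcr2, a neutrophil chemokine receptor, read 8.33, 2.57 and 42.3 FPKM, and Itgam, a subunit of complement receptor 3, 12.6, 8.45 and 45.0. The C3ar1/C5ar1 ratio was accordingly 1.31, 1.46 and 8.34 at 24 h, against 0.924 to 1.52 in control mice and 3.05, 3.06 and 3.53 at 72 h.

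Ranked by mean FPKM, control tissue held C3 (209), C1qa (84.5), C1qc (61.2), C1qb (52.4), C4b (6.34), C3ar1 (3.46), C5ar1 (3.21) and Cfb (1.01). Neighbours overlapped between mice only for C1qc with C1qb and for C3ar1 with C5ar1. At 72 h the order was C1qa (769), C1qb (678), C1qc (583), C3 (569), C3ar1 (111), C5ar1 (34.6), C4b (30.9) and Cfb (12.7), and each C1q chain overlapped the next gene in the order, as did C5ar1 and C4b. C3 no longer stood above the C1q chains, and C3ar1 lay above C4b, from which it was already apart at 24 h (17.6 against 10.9).

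Other genes of the cascade, 54 chosen by their textbook roles, showed a mixed picture by pathway step. Of these, 53 were in the table, 30 passed the filter, and 5 (Mbl1, Mbl2, C8a, C8b and C4bp) were listed at 0 in all 18 mice. At 72 h 20 of 30 were called higher and 7 lower, with a median log2 change of 0.85 over the 30, where 53.1% of all genes were called higher and 24.2% lower. At 24 h it was 9 and 8 of 30 (median 0.014), beside 26.2% and 11.4% of all genes, and at 6 h 6 and 4 (median 0.018), beside 11.6% and 16.8%. At 10 min and 1 h limma called 0, with 5 and 2 at an unadjusted p under 0.05. Without any 1 of the control mice, the 24 h count fell from 17 to between 8 and 10 and the 6 h count from 10 to 4 or 5. Of the 8 lower calls at 24 h only 1 or 2 were left, so the decreases at 24 h given below rest on all 3 control mice for most genes. Under the 3 other scalings tried, none of the 30 was called in the direction opposite to that given here.

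Of the genes that start the classical and lectin pathways, 7 of 8 were called higher at 72 h and 1 lower (Colec11, a collectin), with 6 higher after median-of-ratios or quantile scaling, which lost Masp1. Of all genes, 53.1% were called higher and 24.2% lower. C1ra and C1s1, the proteases bound to C1q, were called lower at 24 h, with the limit given above, and higher at 72 h. C1ra read 7.78, 7.71 and 8.54 FPKM in control mice, 6.27, 5.91 and 6.49 at 24 h (limma adjusted p = 0.0334), and 17.4, 16.6 and 16.8 at 72 h (adjusted p = 2.43e-06). C1s1 followed with log2 changes of -0.42 (adjusted p = 0.0196) and 0.71 (adjusted p = 6.07e-05). C2, which joins C4 in the classical convertase and neighbours Cfb, stayed at or under 1.46 FPKM until 24 h and read 8.44, 3.98 and 4.83 FPKM at 72 h (log2 change 1.62, adjusted p = 0.000214). Colec11 was called lower at 6, 24 and 72 h, with mean FPKM 0.688, 0.461 and 0.555 times that of control.

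In the alternative and terminal steps, 4 genes passed the filter. Cfp, the gene of properdin, which stabilises the alternative convertase, measured 4.50, 4.06 and 4.73 FPKM in control mice, 22.4, 27.9 and 43.1 at 24 h and 86.2, 99.5 and 101 at 72 h (log2 change 4.15, limma adjusted p = 1.00e-08). Cfd, encoding factor D, the protease that cuts factor B, was at most 2.48 FPKM in any mouse and was not called at any time. Hc, the gene of C5, from which C5a is released, was at 0 in the control, 10 min and 1 h mice and at most 0.321 FPKM in any other, below the filter. The C5a receptor transcript was therefore measured in tissue with next to no C5 transcript.

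The regulators were split, with 4 higher and 5 lower of 10 at 72 h (3 and 6 after quantile normalization, which lost Cd55), where 53.1% of all genes were higher and 24.2% lower. At 6 h 1 was higher and 3 lower (11.6% and 16.8% of all genes), and at 24 h 1 and 4 (26.2% and 11.4%). The higher one was Clu each time, the most abundant regulator, with mean FPKM of 346 in control mice and 491, 996 and 955 at 6, 24 and 72 h. Serping1, the C1 inhibitor, read 34.5, 32.2 and 39.0 FPKM in control mice, 27.1, 23.7 and 23.5 at 24 h (limma adjusted p = 0.0136), and 67.5, 54.9 and 62.3 at 72 h (adjusted p = 9.05e-05). Cd55, which speeds the decay of convertases on cell surfaces, was called lower at 6 h and 24 h (log2 changes -0.73 and -0.39) and higher at 72 h (0.61). Cd59a, which blocks the membrane attack complex, was lower at 72 h: it read 64.8, 69.2 and 64.1 FPKM in control mice and 36.7, 34.2 and 29.6 at 72 h (log2 change -0.96, adjusted p = 1.15e-05). The largest decrease of the list at 72 h was that of Vtn, vitronectin, from 10.6 to 11.2 FPKM in control mice to 4.10 to 5.04 (log2 change -1.10, adjusted p = 4.11e-06), and it was already called lower at 6 h (-0.86) and 24 h (-0.75).

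The receptors moved one way, with 4, 6 and 8 of 8 called higher at 6, 24 and 72 h and 0 lower (4, 5 and 7 after quantile normalization), beside 11.6%, 26.2% and 53.1% of all genes. Itgam and Itgb2, the chains of complement receptor 3, had the largest log2(FPKM + 1) changes of the list at 6 h and 24 h, although by fold of mean FPKM Itgax, a chain of complement receptor 4, exceeded Itgb2 at both times (6.51 against 3.16 and 21.0 against 12.4). Itgb2 read 2.25, 2.67 and 2.60 FPKM in control mice, 12.2, 4.28 and 7.29 at 6 h, and 58.2, 70.5 and 60.4 at 72 h (log2 change 4.19, limma adjusted p = 1.11e-08). Itgam had log2 changes of 1.97, 3.41 and 3.88 at the 3 times, each called. C5ar2 was higher at 72 h too, with 0.363, 0.467 and 0.466 FPKM in control mice and 2.87, 2.87 and 3.45 at 72 h (log2 change 1.50, adjusted p = 1.33e-06).

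**Figure D4:**
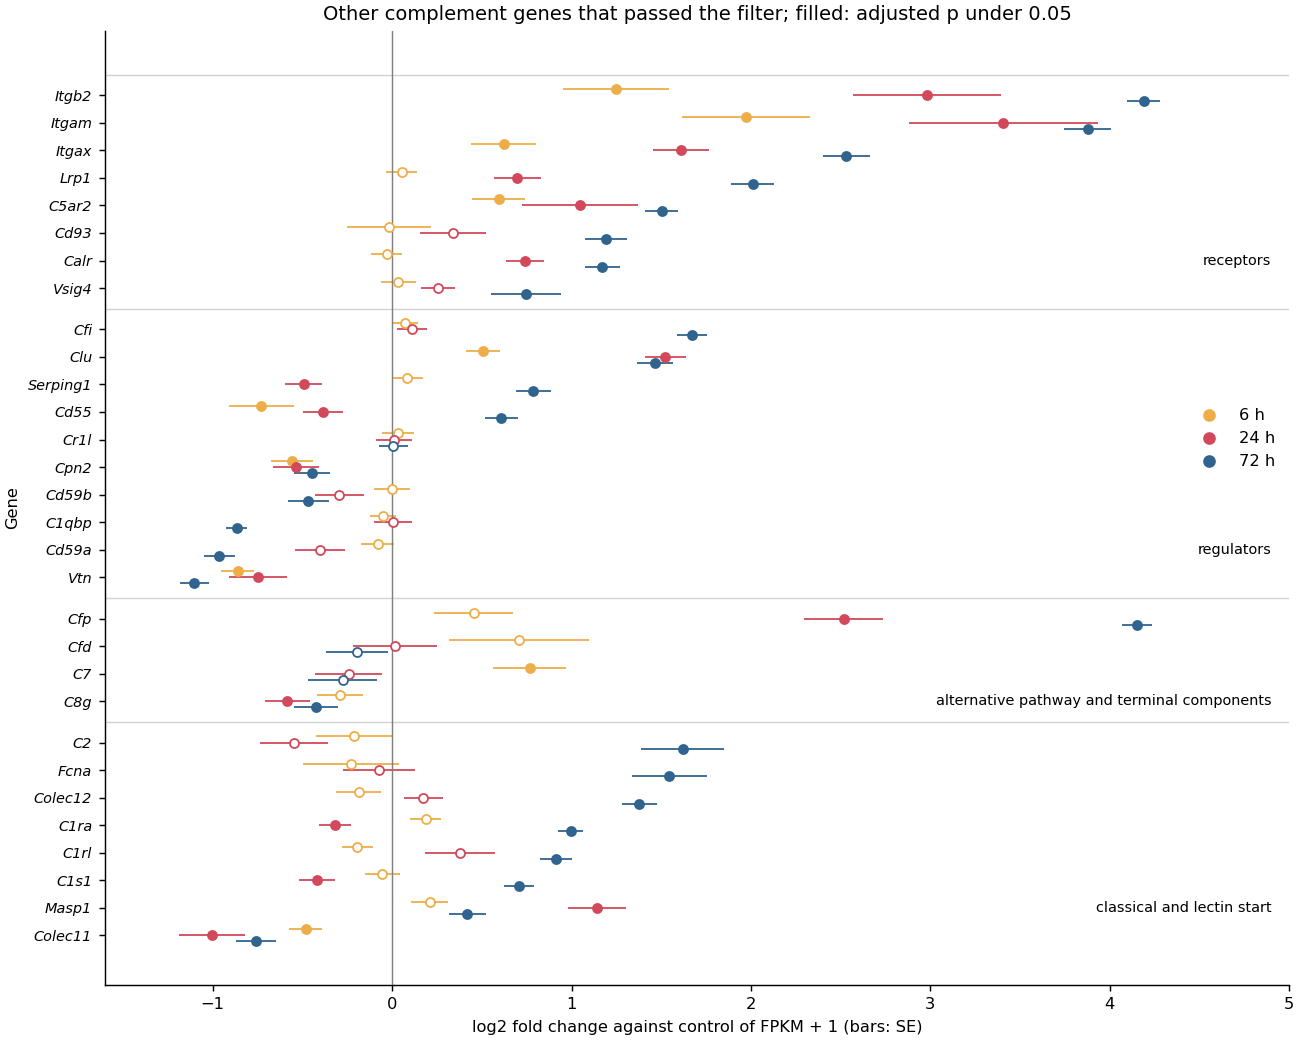
Log2 fold change of FPKM + 1 against control (x axis, bars for the SE) at 6, 24 and 72 h for the 30 other complement genes that passed the filter, grouped by role; filled points have an adjusted p under 0.05 (limma). All receptors lie to the right at 72 h, while the regulators spread from -1.10 (Vtn) to 1.67 (Cfi).

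Transcripts that mark cell types shifted with the same times. In whole tissue, more cells of a type and more RNA per cell cannot be told apart. The marker counts are to be read beside all genes, of which 11.6%, 26.2% and 53.1% were called higher at 6, 24 and 72 h. The shares called lower were 16.8%, 11.4% and 24.2%. Of 10 macrophage markers, all detected in every mouse, 7 were called higher and 2 lower at 72 h, and their summed FPKM was 672 to 768, against 112 to 121 in control mice, a 6.27-fold difference in mean. At 6 h and 24 h that fold was 1.14 and 1.70, with 5 markers called higher at each time, and 3 lower at 6 h and 1 at 24 h. Single markers differed widely at 72 h: Timd4 and Lyve1 (0.586-fold) were lower, and among those called higher were the abundant Csf1r (6.50-fold), Adgre1 (19.1-fold), Fcgr1 (29.3-fold) and Cd68 (36.0-fold). The C1q chains, at 9.10-fold to 12.9-fold, and C3ar1, at 32.1-fold, lay between these values. The monocyte sum was 5.38, 21.6 and 22.7 times control at 6, 24 and 72 h, with 6 of 6 markers called higher each time. Without the third 24 h mouse the 24 h value was 11.6, the 3 sums there being 89.3, 57.0 and 264 FPKM. The pan-leukocyte sum was 2.35, 6.69 and 16.6 times control.

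Neutrophil markers (9 of 10 in the table, none at 0 in all mice from 6 h on) were highest earlier in the mean, at 131 times control at 6 h (65.3 without the first mouse) and 110 at 24 h (34.3 without the third mouse), and were 16.7 times control at 72 h. At 6 h the summed neutrophil FPKM was 1004, 118 and 380 in the 3 mice whose C5ar1 was 11.7, 4.96 and 5.75. At 24 h it was 216, 45.4 and 998, where C5ar1 was 10.2, 9.93 and 2.98, so the mouse with most neutrophil transcript had least C5ar1. Fibroblast markers rose late: 8 of 8 were called higher at 72 h, with sums of 3823 to 4942 FPKM against 259 to 292 in control mice, and the sums at 6 h and 24 h were 0.849 and 1.34 times control. At 6 h 0 were called higher and 4 lower, and at 24 h 4 higher and 1 lower. Of all genes, 11.6%, 26.2% and 53.1% were called higher at 6, 24 and 72 h, and 16.8%, 11.4% and 24.2% lower. The cardiomyocyte sum, which checks the labelled tissue, was 55765 to 59296 FPKM in control mice and still 20429 to 25375 at 72 h, with 8 of 8 markers called lower. The endothelial sum stayed between 0.909 and 1.11 times control, with 1 of 6 markers called higher and 2 lower at 6 h, and 3 lower at 24 h and at 72 h. The summed FPKM of 7 hepatocyte markers was at most 6.51 in any mouse, and Serpina1a was at 0 in all control mice. At 6 h that sum was 3.41 to 6.51 against 0.963 to 1.56 in control mice, 3.62 times control, and Ahsg, the 1 marker that passed the filter, was called higher. The part of these shifts in the complement levels was not tested.

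**Figure D5:**
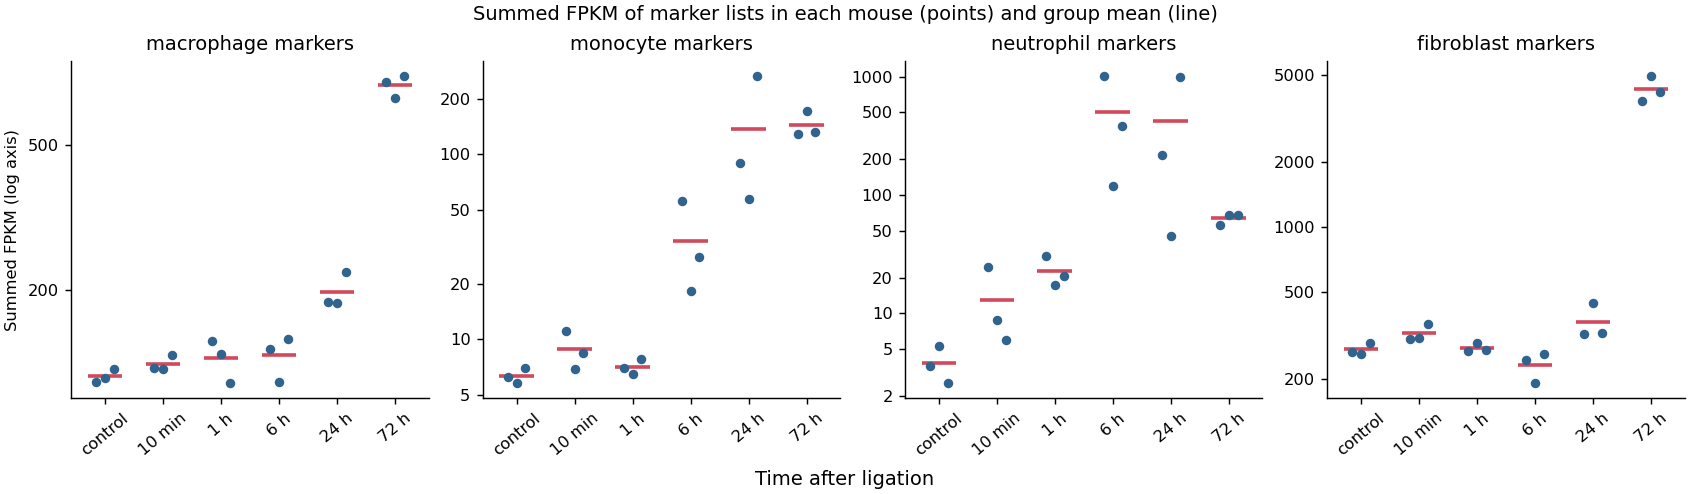
Summed FPKM of marker genes (log axis) in each mouse by time after ligation, for macrophage, monocyte, neutrophil and fibroblast markers; points are mice and lines are means of 3 mice. Mean neutrophil sums are highest at 6 h and 24 h, whereas macrophage and fibroblast sums are highest at 72 h.

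The genes with the courses most like each member's were found by Pearson correlation of log2(FPKM + 1) over the 18 mice. For C1qa they were Arhgap19, Arhgap22 and Ms4a7 (r = 0.993 to 0.994), for C1qb Gpnmb, Ccl8 and Tpx2 (0.992 to 0.993), and for C1qc Fcrls, Ms4a7 and Arhgap19 (0.994 to 0.995). C3ar1 ran most closely with Cndp2, Lgmn and Ctss (0.994 to 0.996), and this likeness was almost as high over the 15 mice without the 72 h group (0.973 to 0.990). C3 was nearest to Anxa8, Krt14 and Marco (0.923 to 0.949), C4b to Lox, Dio2 and Bend4 (0.951 to 0.954), Cfb to Mfap5, Col12a1 and Krt18 (0.976 to 0.977), and C5ar1 to Nanos1, D17H6S56E-5 and Krt18 (0.945 to 0.954). Over the 15 mice without the 72 h group r was 0.360 for C3 and Marco and 0.693 to 0.990 for the other 23 pairs. Ranking by Spearman correlation shared 0 of the 24 places for the same member, and 1 gene, Nanos1, was on both lists, by Spearman for C1qb.

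Among the members themselves, C1qa and C1qc stayed together with or without the 72 h mice (r = 0.998 over 18 mice and 0.953 over 15), as did C4b and Cfb (0.949 and 0.815). C1qa and C3 did not: r was 0.832 over 18 mice and -0.37 over the 15 earlier ones. The mice share groups, so these values are given as descriptions only.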

How the data were processed

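RNA-seq of 18 mouse hearts (6 groups of 3) was used as deposited by the authors, as FPKM per gene symbol, with replicates kept apart and 0 columns left unassigned. Per the study's methods, polyA libraries were read as 150 bp pairs, trimmed with cutadapt 1.18 (quality 20, length 50), mapped to mm10 with HISAT2 2.1.0 and quantified with StringTie 1.3.4d. The annotation is not given in the sources used here. Read counts were not recovered from FPKM, so depth is known only relative to the first control mouse and limits the precision of low genes. Groups came from sample titles.

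Genes with at least 1 FPKM in at least 1 of 18 mice (13333 of 24419) were tested on log2(FPKM + 1) with limma 3.58.1 in R 4.3.3 (lmFit, eBayes with a variance trend), on the 6 mice of each comparison only, by two-sided tests whose p-values were adjusted by Benjamini-Hochberg across the genes tested. A gene was called at an adjusted p under 0.05. The limma steps were tested on simulated data. Ratios were compared by exact permutation (Python 3.11.15, scipy 1.17.1). Positions are from GENCODE annotation of mm10 and promoters from RefSeq (GRCm38.p6). The 8 genes, the other lists and the tests were chosen with earlier results of these data known. Named were the 8 genes, 13 other complement genes fixed by role (1 further gene is not reported here), the 2 largest rises and falls of the wider list at 6, 24 and 72 h, and the 3 most similar genes per member. The alternatives were another pseudocount, filter, scaling, variance model or fit, a replicate block, and leaving out each mouse.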

Additional observations from a re-analysis of the deposited data

Results flagged for a closer look

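These differences between successive times were singled out because the effect against control differed between 2 times by a direct test (limma, 3 mice against 3, adjusted over all genes). From 1 h to 6 h, where 9.32% of all genes were called higher, 3 of 8 genes were higher: C4b by a log2 change of 0.77 (adjusted p = 0.0153), Cfb by 0.55 (adjusted p = 0.0271) and C5ar1 by 1.00 (adjusted p = 0.0372). C3ar1 missed the threshold in this step (log2 change 0.55, adjusted p = 0.0504).

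From 6 h to 24 h, where 12.5% of all genes were called higher, C1qc was higher by 0.63 (adjusted p = 0.0366) and C3ar1 by 1.50 (adjusted p = 0.0172). C1qa missed it narrowly (0.59, adjusted p = 0.0502). The C1qc call was lost with median-of-ratios scaling (log2 change 0.38, limma adjusted p = 0.145) and with quantile normalization (0.51, adjusted p = 0.0925). The calls of C1qc and C3ar1 were both lost without any 1 of the 6 h mice. The share of all genes called higher in this step was itself 0.0075% without the second 6 h mouse, so that loss was not particular to these genes.

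From 24 h to 72 h, where 29.7% of all genes were called higher, all 8 were higher and no gene's groups overlapped. The C1q chains had the largest steps, C1qb 3.08 (adjusted p = 5.00e-05), C1qc 2.90 (adjusted p = 3.90e-05) and C1qa 2.77 (adjusted p = 5.33e-05). The receptors followed with 2.64 for C3ar1 (adjusted p = 0.000145) and 2.18 for C5ar1 (adjusted p = 0.00335). Cfb stepped by 2.09 (adjusted p = 0.000224), C4b by 1.40 (adjusted p = 0.00195) and C3 by 1.35 (adjusted p = 0.00259).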

How the results depend on the processing

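Over 960 single-gene alternatives, 848 kept direction and side of the threshold, 65 lost a call, 20 gained one and 27 changed sign. All 8 genes stayed called at 72 h, against control and against 24 h, in all 15 alternatives. At 6 h the count of 5 members became 2 without the filter or with equal FPKM sums, and 3 with all 18 mice in one fit, and it ran from 1 to 5 without 1 mouse. At 24 h the count of 4 became 2 by quantile normalization and ran from 1 to 7 without 1 mouse. Between 1 h and 6 h the count of 3 ran from 0 to 5 (0 without the second 1 h mouse, 1 without either other, 5 without the second 6 h mouse). Between 6 h and 24 h the count of 2 became 1 without the filter or with median-of-ratios or quantile scaling, 4 with all 18 mice in one fit, and 0 to 3 without 1 mouse (0 without any 6 h mouse or the second 24 h mouse, 1 without the first 24 h mouse). The marker sums without each mouse, added after the data were seen, moved by over 1.5 times only where given in the report. The other complement genes called ran from 4 to 12 at 6 h and from 8 to 18 at 24 h without 1 mouse. Without 1 mouse the share of all genes called higher ran from 5.73% to 13.4% at 6 h and from 9.47% to 30.3% at 24 h. It ran from 3.44% to 9.92% between 1 h and 6 h and from 0.0075% to 13.1% between 6 h and 24 h. The cause of these changes was not tested.

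Replicate numbers did not pair the mice: same-numbered deviations from the group means correlated with those of controls at -0.259 to 0.0822, and 4 of 15 mice correlated best with their own number. With the number as a replicate block, 3 in place of 5 members were called at 6 h and 0 in place of 2 between 6 h and 24 h, and no other member or wider-list count moved by over 1.5 times. Over all genes the block left 1262 called higher and 1577 lower at 6 h, in place of 1543 and 2233. Between 6 h and 24 h it left 1 and 0 of all genes, in place of 1664 and 258, so the loss there was not particular to the members.

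Every change of sign concerned a gene that was not called. By quantile normalization these were C4b at 10 min (-0.0049), C1qa (-0.025), C1qb (-0.0031) and C3 (-0.0027) at 1 h, C3 at 24 h (-0.056) and Cfb from 6 h to 24 h (-0.032). C3 at 24 h was -0.098 with median-of-ratios scaling. Without 1 mouse, the log2 change at 10 min ran from -0.065 to 0.12 for C4b, -0.14 to 0.047 for C1qb, -0.14 to 0.0074 for C1qc and -0.18 to 0.055 for C3ar1. At 1 h it ran from -0.086 to 0.075 for C1qa, -0.091 to 0.095 for C1qb, -0.073 to 0.069 for C3, -0.15 to 0.082 for C3ar1 and -0.21 to 0.024 for C5ar1. It ran from -0.034 to 0.13 for C3 at 24 h and from -0.28 to 0.47 for C5ar1 between 6 h and 24 h. Low genes such as Cfb rest on few fragments, and 3 mice per group limit every call.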
